A study of Mus musculus with 9 samples.

Results

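The genes described are 8 enzymes of cholesterol synthesis, namely Hmgcs1, Idi1, Fdft1, Sqle, Lss, Cyp51, Msmo1 and Dhcr7, in mouse cerebellum and cerebellar tumour at postnatal day 13. A gene was read through a probe set annotated to it alone, and through the brightest over the 9 arrays where it had several. All 8 had such a probe set, of 19938 genes with one on the array, and all 8 lay above the filter on dim genes that left 16323 for testing. The 8 were selected on their own log2 levels in the 3 groups, that is, with the differences between Ptch1KO, SufuKO and wildtype in view. Their own levels and differences are therefore given as a description, and tests are kept for other genes of the pathway.

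The study measured 3 groups of 3 samples each on Affymetrix Mouse Gene 1.0 ST arrays, whose deposited values are on a log2 scale, so that a difference of 1 is a doubling. The first group is medulloblastoma, a tumour of the cerebellum, labelled Ptch1KO (knockout of Ptch1, the receptor that holds Hedgehog signalling off). The other groups are cerebellum labelled SufuKO (knockout of Sufu, which binds and restrains the Gli transcription factors of that pathway) and cerebellum labelled wildtype. The labels give no strain, promoter or Cre line for either knockout and do not say which exons were removed. Nor do they state whether each sample is a mouse of its own, so the spread behind every error and p-value here may be partly technical. A standard error (SE) here pools the spread within all 3 groups and is drawn toward that of other genes. It can thus differ from the spread of the groups compared. For Sqle the SufuKO SD was 0.02, and the SE of SufuKO minus wildtype was 0.06.

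Array medians lay between 6.72 and 6.79, and no library was left out. Sufu read 9.88 ± 0.06 in Ptch1KO, 8.07 ± 0.07 in SufuKO and 8.96 ± 0.12 in wildtype (log2, SD, n = 3), lowest in the samples whose label names its loss. Ptch1 read 11.28 ± 0.14 in Ptch1KO, 10.20 ± 0.05 in SufuKO and 10.26 ± 0.01 in wildtype, so its probe set was not lower in the samples labelled Ptch1KO, and whether it lies in the removed part is not stated. Xist, the RNA of the inactive X chromosome, was high on Ptch1KO replicate 2, on SufuKO replicate 3 and on all 3 wildtype arrays. Sex is thus partly tied to genotype, and a fit with a sex term was among the alternatives.

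Cholesterol is built from acetyl units through mevalonate and isoprenoids to squalene, a linear chain that is oxidised and closed into lanosterol, from which further enzymes strip methyl groups and move and reduce double bonds. When membranes are short of cholesterol, the carrier Scap brings the factor SREBP2 (gene Srebf2) to the Golgi, where it is cut and released to switch on the genes of nearly every step. The brain makes its own cholesterol because lipoproteins do not cross the blood-brain barrier, and myelin takes up a great deal of it. Sterols also take part in Hedgehog signalling itself, since the ligand carries a cholesterol and Smoothened binds sterols.

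The promoters of the enzymes are shown because the pathway is known for a shared promoter layout, in which SREBP acts beside the CCAAT-binding factor NF-Y and the GC-box factor Sp1. RefSeq sequences of build GRCm38.p6 were matched for 6 of the 8 genes, with 250 bases before and 50 after the start of transcription. Each is printed 5′ to 3′ on the strand of the gene. Capitals mark CCAAT, which reads ATTGG when it lies on the opposite strand, and in Hmgcs1 also the sterol element core CACNCCAC. The windows are chr13:119690101-119690400 (plus strand) for Hmgcs1, chr13:8885356-8885655 (plus) for Idi1, chr10:76531355-76531654 (plus) for Lss, chr5:4104648-4104947 (minus) for Cyp51, chr8:64733529-64733828 (minus) for Msmo1 and chr7:143829964-143830263 (plus) for Dhcr7.
Hmgcs1: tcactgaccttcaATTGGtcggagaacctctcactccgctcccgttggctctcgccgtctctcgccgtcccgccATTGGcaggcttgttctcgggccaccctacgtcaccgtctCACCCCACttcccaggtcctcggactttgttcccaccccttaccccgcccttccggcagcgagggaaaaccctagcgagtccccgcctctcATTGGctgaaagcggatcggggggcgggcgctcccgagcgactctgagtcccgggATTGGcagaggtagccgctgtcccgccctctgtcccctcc
Idi1: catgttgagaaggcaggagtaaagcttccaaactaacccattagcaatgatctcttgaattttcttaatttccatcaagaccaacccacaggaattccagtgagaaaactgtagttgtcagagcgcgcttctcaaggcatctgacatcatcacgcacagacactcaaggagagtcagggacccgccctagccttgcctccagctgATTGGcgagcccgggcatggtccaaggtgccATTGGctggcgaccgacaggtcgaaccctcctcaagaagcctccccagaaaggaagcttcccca
Lss: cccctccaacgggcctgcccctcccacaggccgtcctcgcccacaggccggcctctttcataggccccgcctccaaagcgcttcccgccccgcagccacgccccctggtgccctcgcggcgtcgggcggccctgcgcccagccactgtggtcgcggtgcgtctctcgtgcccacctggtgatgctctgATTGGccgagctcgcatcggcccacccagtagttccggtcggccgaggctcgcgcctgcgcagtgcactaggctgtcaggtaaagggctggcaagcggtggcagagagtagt
Cyp51: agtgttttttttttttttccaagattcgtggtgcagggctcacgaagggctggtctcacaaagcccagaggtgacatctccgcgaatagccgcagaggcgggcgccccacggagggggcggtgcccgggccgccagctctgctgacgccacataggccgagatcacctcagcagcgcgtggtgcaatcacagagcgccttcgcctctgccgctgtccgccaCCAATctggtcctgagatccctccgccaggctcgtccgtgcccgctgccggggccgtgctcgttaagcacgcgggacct
Msmo1: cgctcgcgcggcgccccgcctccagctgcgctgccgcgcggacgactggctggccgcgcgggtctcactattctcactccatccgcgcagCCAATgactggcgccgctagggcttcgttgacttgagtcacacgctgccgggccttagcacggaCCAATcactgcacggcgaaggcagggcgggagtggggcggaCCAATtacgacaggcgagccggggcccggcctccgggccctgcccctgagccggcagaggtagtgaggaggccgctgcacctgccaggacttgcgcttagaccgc
Dhcr7: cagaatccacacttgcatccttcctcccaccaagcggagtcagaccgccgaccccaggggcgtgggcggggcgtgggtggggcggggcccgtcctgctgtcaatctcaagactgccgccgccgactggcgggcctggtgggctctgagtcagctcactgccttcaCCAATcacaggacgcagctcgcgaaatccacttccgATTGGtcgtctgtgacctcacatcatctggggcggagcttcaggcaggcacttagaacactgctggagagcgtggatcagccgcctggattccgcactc

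CCAAT, searched on both strands, was present in at least 1 promoter of all 6 genes, and in 6 of their 8 promoters, against 37.4% of the 32851 mouse promoters of the same length in the table. Hmgcs1 held 4 copies, Msmo1 held 3, Idi1 and Dhcr7 held 2, and Lss and Cyp51 held 1. Dhcr7 has 3 annotated starts, and the window printed is the third, since the windows of the other starts hold no CCAAT. The GC box GGGCGG was also present in all 6 genes, and in 7 of the 8 promoters, against 35.7% of all promoters. The sterol element core was found in Hmgcs1 alone, with its leftmost base at -136 (the first transcribed base is 1), against 6.24% of all promoters. The Gli motif GACCACCCA was found in none of them, against 0.253% of all promoters. No 2 of these matches overlapped. Of 10 other enzymes of the pathway with a promoter in the table, 10 held CCAAT in at least 1 promoter, 8 the GC box, 0 the sterol core and 0 the Gli motif. These are counts of genes, whereas the shares above are of promoters. Pmvk has 2 annotated starts, and the window of its second holds neither CCAAT nor the GC box. These matches describe letters in a window and are not evidence of binding.

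The enzymes as a group stood highest in SufuKO cerebellum and lowest in Ptch1KO tumours. The mean log2 level of the 8 genes lay between 9.10 and 9.15 on the Ptch1KO arrays, between 9.46 and 9.67 on the SufuKO arrays and between 9.27 and 9.29 on the wildtype arrays, with no overlap. By group means, 6 of the 8 had the order SufuKO, wildtype, Ptch1KO, which 10.8% of all tested genes had. Of these 6, Idi1 overlapped between SufuKO and wildtype, and Sqle and Cyp51 overlapped between wildtype and Ptch1KO. Fdft1 had the order SufuKO, Ptch1KO, wildtype (9.66% of all tested genes), and Dhcr7 the order wildtype, SufuKO, Ptch1KO (31.6%). All 3 SufuKO arrays lay above the other 6 for 6 of the 8 enzymes and for 3.68% of all tested genes. RNA came from whole tissue, in which fewer cells of a type and less RNA per cell cannot be told apart.

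**Figure D1:**
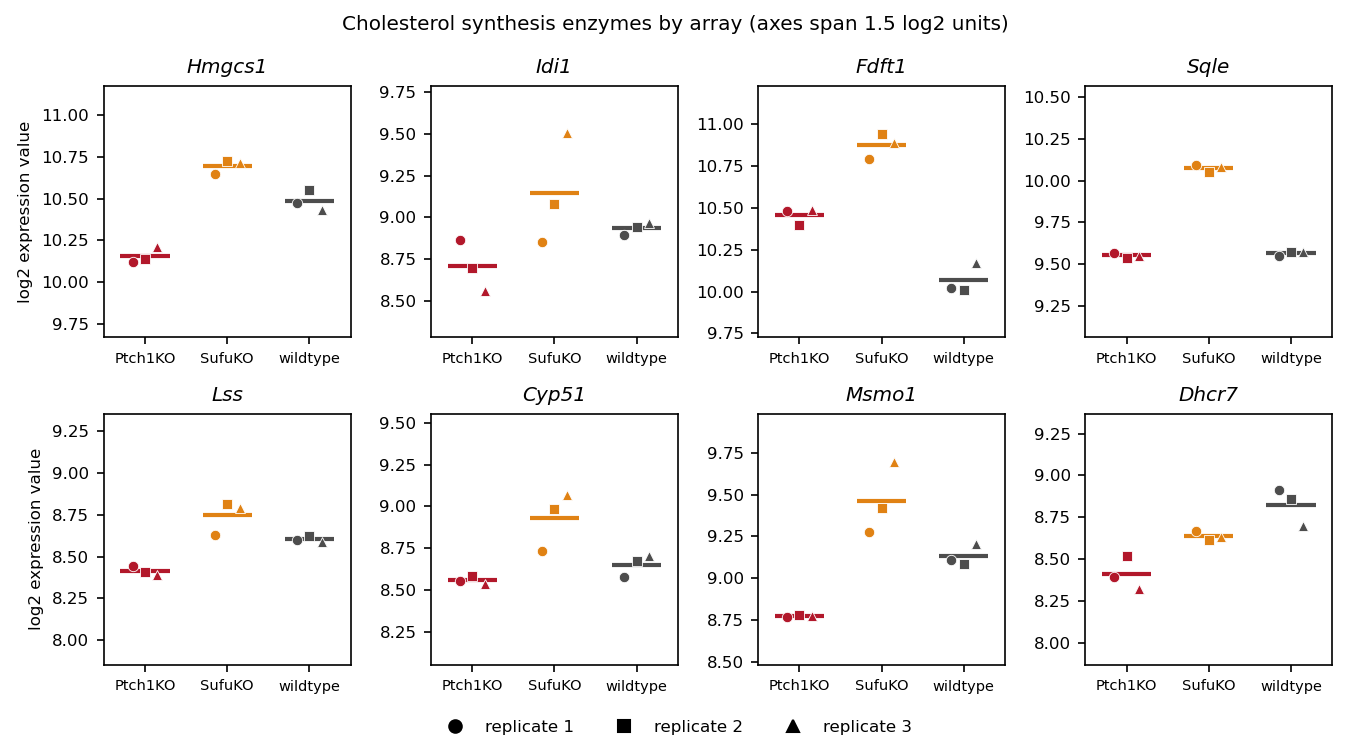
Log2 expression value of each of the 8 enzymes on each array (symbols are replicates) with the group mean (bar), for Ptch1KO, SufuKO and wildtype; every y axis spans 1.5 log2 units. The SufuKO arrays lie above all others for 6 enzymes, while Idi1 overlaps between SufuKO and wildtype, and for Dhcr7 wildtype is highest.

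Hmgcs1 makes HMG-CoA, the precursor of mevalonate. Its log2 level was 10.12, 10.14 and 10.21 on the Ptch1KO arrays, 10.65, 10.72 and 10.71 on the SufuKO arrays and 10.47, 10.55 and 10.43 on the wildtype arrays. The 3 groups did not overlap, and each gap exceeded the larger SD of the groups beside it. The log2 difference was -0.33 ± 0.06 (SE) for Ptch1KO minus wildtype, 0.21 ± 0.06 for SufuKO minus wildtype and -0.54 ± 0.06 for Ptch1KO minus SufuKO.

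Idi1 interconverts the isoprenoid building blocks isopentenyl and dimethylallyl diphosphate. It read 8.86, 8.70 and 8.56 (log2) in Ptch1KO, 8.85, 9.08 and 9.51 in SufuKO and 8.89, 8.94 and 8.97 in wildtype. The SufuKO samples were the most scattered here, with replicate 1 below every wildtype sample and replicate 3 far above them, and the SufuKO mean lay within 1 SD of the wildtype mean. The SufuKO minus wildtype difference was 0.21 ± 0.14 (log2, SE) with all arrays, 0.03 without SufuKO replicate 3, 0.36 without SufuKO replicate 1 and 0.39 with a sex term. For Ptch1KO minus wildtype it was -0.23 ± 0.14 with all arrays and -0.05 with a sex term. The Ptch1KO minus SufuKO difference was -0.44 ± 0.14, and -0.26 without SufuKO replicate 3.

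Fdft1, squalene synthase, takes the first step that serves sterols alone, by joining a pair of farnesyl diphosphates. Its log2 level was 10.48, 10.40 and 10.49 in Ptch1KO, 10.79, 10.94 and 10.89 in SufuKO and 10.02, 10.01 and 10.17 in wildtype. It was the only enzyme of the 8 whose Ptch1KO arrays all lay above all wildtype arrays. The difference was 0.39 ± 0.07 (log2, SE) for Ptch1KO minus wildtype, 0.81 ± 0.07, or 1.75-fold higher, for SufuKO minus wildtype, and -0.42 ± 0.07 for Ptch1KO minus SufuKO.

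Sqle, squalene epoxidase, adds the oxygen that lets squalene close into rings and is a control point of the pathway. Its level was 9.57, 9.54 and 9.55 in Ptch1KO, 10.09, 10.05 and 10.08 in SufuKO and 9.55, 9.57 and 9.57 in wildtype (log2). The Ptch1KO and wildtype arrays overlapped and their means differed by less than 1 SD, while all SufuKO arrays stood well apart. The SufuKO minus wildtype difference was 0.51 ± 0.06 (log2, SE), a 1.42-fold higher level, and the Ptch1KO minus SufuKO difference was -0.52 ± 0.06. For Ptch1KO minus wildtype the difference was -0.01 ± 0.06, with a 95% interval of -0.14 to 0.11, and its sign turned under quantile normalization (0.02).

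Lss closes epoxidised squalene into lanosterol, the first sterol. It read 8.45, 8.41 and 8.39 (log2) in Ptch1KO, 8.63, 8.81 and 8.79 in SufuKO and 8.60, 8.62 and 8.59 in wildtype. The groups did not overlap, although SufuKO replicate 1 lay just above the highest wildtype array. The Ptch1KO minus wildtype difference was -0.19 ± 0.07 (log2, SE), SufuKO minus wildtype was 0.14 ± 0.07 and Ptch1KO minus SufuKO was -0.33 ± 0.07.

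Cyp51, a cytochrome P450, removes the first methyl group from lanosterol. Its log2 level was 8.56, 8.58 and 8.54 in Ptch1KO, 8.73, 8.98 and 9.07 in SufuKO and 8.58, 8.68 and 8.70 in wildtype. Ptch1KO and wildtype overlapped, and SufuKO lay above both with a wider spread. SufuKO minus wildtype was 0.28 ± 0.09 (log2, SE) and Ptch1KO minus SufuKO was -0.37 ± 0.09. Ptch1KO minus wildtype was -0.09 ± 0.09, and -0.01 with a sex term.

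Msmo1 starts the removal of a further pair of methyl groups. Its level was 8.77, 8.78 and 8.77 in Ptch1KO, 9.27, 9.42 and 9.70 in SufuKO and 9.11, 9.09 and 9.21 in wildtype (log2). The groups did not overlap, the 3 tumours were almost equal, and SufuKO replicate 3 was the highest array. Of the 8 enzymes it had the widest gap between the mutants, with a Ptch1KO minus SufuKO difference of -0.69 ± 0.09 (log2, SE), or 1.61-fold lower. Ptch1KO minus wildtype was -0.36 ± 0.09, and SufuKO minus wildtype was 0.33 ± 0.09 with all arrays and 0.21 without SufuKO replicate 3.

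Dhcr7 makes cholesterol in the last step of one branch of the pathway, and its loss causes Smith-Lemli-Opitz syndrome in humans. It read 8.39, 8.52 and 8.32 (log2) in Ptch1KO, 8.67, 8.61 and 8.63 in SufuKO and 8.91, 8.86 and 8.70 in wildtype. Here wildtype was the highest group, and no group overlapped another. The Ptch1KO minus wildtype difference was -0.41 ± 0.08 (log2, SE), SufuKO minus wildtype was -0.19 ± 0.08 and Ptch1KO minus SufuKO was -0.23 ± 0.08.

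Idi1 and Fdft1 each had a second single-gene probe set with close values. For Idi1 it gave log2 differences of -0.22 for Ptch1KO minus wildtype, 0.20 for SufuKO minus wildtype and -0.42 for Ptch1KO minus SufuKO, and for Fdft1 0.35, 0.80 and -0.45 in the same order of comparisons. Mice also have an Idi2 gene, and cross-hybridisation with it was not tested.

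The SufuKO arrays were the most scattered over the enzymes. SufuKO replicate 1 was the lowest SufuKO array for 6 of the 8 enzymes, all but Sqle and Dhcr7, and replicate 3, the SufuKO array with high Xist, was the highest for Idi1, Cyp51 and Msmo1 and the lowest for 0. The SD of the mean level of the 8 genes was 0.023 log2 units over the Ptch1KO arrays, 0.11 over the SufuKO arrays and 0.014 over the wildtype arrays. The part of sex in these values was not tested within SufuKO, where 1 array has high Xist.

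Counted by the threshold of the fit across all genes (limma, adjusted p under 0.05), the 8 enzymes give the following picture, which only restates how they were picked. In Ptch1KO against wildtype 1 of the 8, Fdft1, was called higher and 4, Hmgcs1, Lss, Msmo1 and Dhcr7, were called lower, where 22.1% and 24.7% of all tested genes were. All Ptch1KO arrays lay above all wildtype arrays for 1 enzyme and below them for 5, which held for 26.4% and 30.2% of all tested genes. The median log2 difference of the 8 was -0.21, beside -0.01 for all tested genes, and -0.11 with a sex term. In SufuKO against wildtype 5 were called higher, namely Hmgcs1, Fdft1, Sqle, Cyp51 and Msmo1, and 0 lower, where 13% and 12.4% of all tested genes were. All SufuKO arrays lay above all wildtype arrays for 6 enzymes and below them for 1, Dhcr7, which held for 21.3% and 19.6% of all tested genes. Their median was 0.24, beside -0.01 for all genes, and it was 0.37 both without SufuKO replicate 1 and with a sex term. Between the mutants all 8 were called lower in Ptch1KO, and 0 higher, where 17.5% and 12.2% of all tested genes were, with a median of -0.43 beside -0.01. All Ptch1KO arrays lay below all SufuKO arrays for 7 enzymes, all but Idi1, and above them for 0, which held for 23.6% and 16.1% of all tested genes. The comparisons share groups, so they are not separate evidence.

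The other enzymes of the pathway are not among the 8 and were tested with limma across all genes. Their lists were also drawn up with earlier results of these data known, so their counts are not an independent test. From here on a change is given as its log2 difference ± SE, negative where the first-named group of the comparison was lower. Of 14 listed, 11 had a single-gene probe set and all 11 were tested. The other 3 were not analysed here. Between the mutants, 8 of the 11 fell in Ptch1KO relative to SufuKO, 0 rose and 3 did not pass. The median log2 difference was -0.37, and 17.5% of all tested genes fell and 12.2% rose, 29.7% in either direction. In SufuKO relative to wildtype 6 rose, 2 fell and 3 did not pass, with a median of 0.25. There 13% of all tested genes rose and 12.4% fell, 25.4% in either direction. In Ptch1KO relative to wildtype 2 rose, 5 fell and 4 did not pass, with a median of -0.14. There 22.1% of all tested genes rose and 24.7% fell, 46.8% in either direction.

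**Figure D2:**
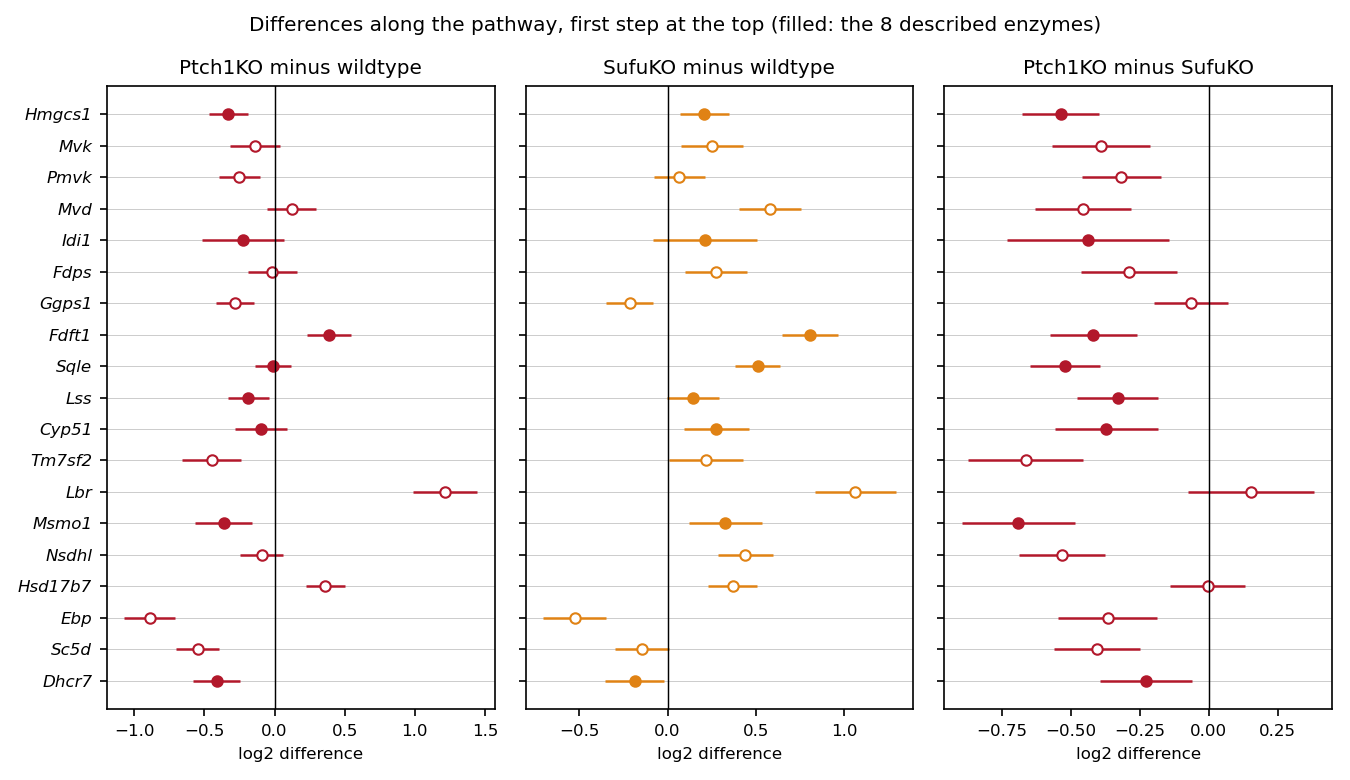
Log2 difference with its 95% interval (line) for the 8 described enzymes (filled) and 11 others (open), ordered from the first step at the top to the last at the bottom. In Ptch1KO minus SufuKO all filled points lie below 0 and of the open points only Lbr lies above it, with an interval that crosses 0; Lbr has the highest difference in both comparisons with wildtype.

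Among the enzymes of the mevalonate and isoprenoid steps, Mvd, which makes isopentenyl diphosphate, had the clearest rise in SufuKO. Its log2 level was 8.32, 8.14 and 8.46 in Ptch1KO, 8.75, 8.78 and 8.76 in SufuKO and 8.23, 8.20 and 8.12 in wildtype, so that SufuKO stood above both other groups. Mvd rose in SufuKO by 0.58 ± 0.08 against wildtype (log2, SE, adjusted p = 0.000288) and was lower in Ptch1KO than in SufuKO with a difference of -0.46 ± 0.08 (adjusted p = 0.00102). Its Ptch1KO minus wildtype difference of 0.12 ± 0.08 did not pass (adjusted p = 0.248). Mvk, which phosphorylates mevalonate, gave 0.25 ± 0.08 in SufuKO against wildtype (adjusted p = 0.038) and -0.39 ± 0.08 in Ptch1KO against SufuKO (adjusted p = 0.00288). Fdps, which makes farnesyl diphosphate, gave 0.27 ± 0.08 (adjusted p = 0.0251) and -0.29 ± 0.08 (adjusted p = 0.0159) in the same comparisons. Pmvk, the next kinase after Mvk, fell in Ptch1KO, at -0.25 ± 0.07 against wildtype (adjusted p = 0.00708) and at -0.32 ± 0.07 against SufuKO (adjusted p = 0.00296), and read 0.07 ± 0.07 in SufuKO against wildtype (adjusted p = 0.536). Ggps1 leads away from sterols, to the lipid used for protein prenylation. It fell in both mutants, at -0.28 ± 0.06 in Ptch1KO (adjusted p = 0.00235) and at -0.21 ± 0.06 in SufuKO (adjusted p = 0.0235) against wildtype. The SufuKO calls of Mvk, Fdps and Ggps1 depended on single arrays. All 3 were lost without wildtype replicate 1, without SufuKO replicate 2 or with a sex term, and those of Mvk and Fdps also without wildtype replicate 3 or SufuKO replicate 1. The Mvk call was lost under quantile normalization too, and its difference was 0.13 with a sex term. The Fdps call between the mutants was lost without SufuKO replicate 2 or Ptch1KO replicate 2.

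Among the later sterol enzymes, Lbr and Tm7sf2 catalyse the same reduction of a ring double bond, and Lbr is also a protein of the inner nuclear membrane. Lbr read 9.27, 9.04 and 8.79 (log2) in Ptch1KO, 8.95, 8.85 and 8.83 in SufuKO and 7.90, 7.82 and 7.73 in wildtype. Both mutants thus stood far above wildtype and overlapped each other. Lbr rose by 1.21 ± 0.10 in Ptch1KO (log2, SE, adjusted p = 1.27e-06) and by 1.06 ± 0.10 in SufuKO (adjusted p = 2.73e-05), and differed by 0.15 ± 0.10 between the mutants (adjusted p = 0.337). Tm7sf2 read 7.41, 7.59 and 7.82 in Ptch1KO, 8.23, 8.26 and 8.32 in SufuKO and 8.13, 8.08 and 7.95 in wildtype. It was thus lowest in the tumours, where it fell, at -0.45 ± 0.10 against wildtype (adjusted p = 0.00185) and at -0.66 ± 0.10 against SufuKO (adjusted p = 0.000267).

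Nsdhl, which acts with Msmo1 in removing methyl groups, had 9.08, 9.03 and 9.04 in Ptch1KO, 9.67, 9.57 and 9.51 in SufuKO and 9.03, 9.21 and 9.19 in wildtype (log2). Only SufuKO stood apart. Nsdhl rose in SufuKO by 0.44 ± 0.07 against wildtype (adjusted p = 0.000833) and fell in Ptch1KO, at -0.53 ± 0.07 against SufuKO (adjusted p = 0.000166). Hsd17b7, the ketone reductase of the same steps, rose by 0.36 ± 0.06 in Ptch1KO (adjusted p = 0.000388) and by 0.37 ± 0.06 in SufuKO (adjusted p = 0.00114) against wildtype. Ebp and Sc5d act after these and just before Dhcr7. Ebp, which moves a double bond, read 8.51, 8.37 and 8.46 in Ptch1KO, 8.66, 8.89 and 8.88 in SufuKO and 9.36, 9.42 and 9.23 in wildtype. Like Dhcr7 it was highest in wildtype and lowest in the tumours. Ebp fell, at -0.89 ± 0.08 in Ptch1KO (adjusted p = 2.12e-06) and at -0.52 ± 0.08 in SufuKO (adjusted p = 0.000644). Sc5d, a desaturase, fell, at -0.55 ± 0.07 in Ptch1KO (adjusted p = 3.59e-05) and read -0.14 ± 0.07 in SufuKO (adjusted p = 0.17).

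The genes that control the pathway were listed as 6 tested genes, with Mbtps2 not analysed here. In Ptch1KO against wildtype 3 rose and 2 fell, and in SufuKO against wildtype 3 rose and 1 fell. Between the mutants 1 was higher in Ptch1KO and 2 were lower. Of all tested genes 22.1% rose and 24.7% fell in Ptch1KO, 13% rose and 12.4% fell in SufuKO, and 12.2% were higher and 17.5% lower in Ptch1KO than in SufuKO. Srebf2, the main factor for cholesterol genes, read 9.88, 9.93 and 9.96 (log2) in Ptch1KO, 10.32, 10.32 and 10.20 in SufuKO and 9.71, 9.75 and 9.66 in wildtype. Its groups did not overlap and SufuKO was the highest. Srebf2 rose by 0.21 ± 0.06 in Ptch1KO (adjusted p = 0.0163) and by 0.57 ± 0.06 in SufuKO (adjusted p = 7.13e-05) against wildtype, and was lower in Ptch1KO than in SufuKO, at -0.36 ± 0.06 (adjusted p = 0.00126). The Ptch1KO call was lost without wildtype replicate 3 and with a sex term.

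Srebf1, whose product acts chiefly on fatty acid genes, had the widest change of this list. It read 9.64, 9.45 and 9.09 (log2) in Ptch1KO, 8.06, 8.10 and 8.18 in SufuKO and 7.77, 7.80 and 7.58 in wildtype, so the tumours stood far above both cerebellar groups. Srebf1 rose by 1.68 ± 0.12 in Ptch1KO against wildtype (adjusted p = 2.89e-07) and by 1.28 ± 0.12 in Ptch1KO against SufuKO (adjusted p = 1.84e-05). In SufuKO against wildtype it rose by 0.40 ± 0.12 (adjusted p = 0.0292), a call lost without wildtype replicate 1 or 3 or SufuKO replicate 2 or 3. Insig1 is an SREBP target whose protein keeps Scap in the endoplasmic reticulum when sterols are plentiful. It read 9.71, 9.57 and 9.58 in Ptch1KO, 9.78, 9.94 and 10.15 in SufuKO and 9.43, 9.61 and 9.63 in wildtype, highest in SufuKO. Insig1 rose in SufuKO by 0.40 ± 0.10 against wildtype (adjusted p = 0.00926), read 0.07 ± 0.10 in Ptch1KO against wildtype (adjusted p = 0.627), and was lower in Ptch1KO than in SufuKO at -0.33 ± 0.10 (adjusted p = 0.0204). That last call was lost without replicate 2 or 3 of either mutant. Insig2, a related protein, fell, at -0.48 ± 0.08 in Ptch1KO (adjusted p = 0.000233) and at -0.32 ± 0.08 in SufuKO (adjusted p = 0.0105), the SufuKO call being lost without wildtype replicate 2 and with a sex term. Mbtps1, the protease that makes the first SREBP cut, rose in Ptch1KO by 0.33 ± 0.07 (adjusted p = 0.00126). Scap fell in Ptch1KO, at -0.21 ± 0.07 (adjusted p = 0.032), a call lost without Ptch1KO replicate 2 or any 1 wildtype array and under quantile normalization.

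Of 8 tested genes of cholesterol uptake and transport in the cell, 3 rose and 4 fell in Ptch1KO, and 2 rose and 5 fell in SufuKO, against wildtype. Between the mutants 2 were higher and 3 lower in Ptch1KO. In either direction, 46.8% of all tested genes passed in Ptch1KO, 25.4% in SufuKO and 29.7% between the mutants. Of the SufuKO calls, that of Npc2 (a rise) was lost in 13 of 18 alternatives, that of Npc1 (a fall) in 9 and that of Lipa (a fall) in 3. Between the mutants, the calls of Scarb1 (higher) and Vldlr (lower) were each lost in 11, that of Lipa (higher) in 3 and that of Lrp1 (lower) in 2. Stard4, a carrier of sterols between membranes, read 8.70, 8.66 and 8.46 (log2) in Ptch1KO, 8.59, 8.53 and 8.72 in SufuKO and 7.97, 8.0 and 7.97 in wildtype. Both mutants were above wildtype, by 0.63 ± 0.08 in Ptch1KO (adjusted p = 3.04e-05) and 0.63 ± 0.08 in SufuKO (adjusted p = 0.00014). The lipoprotein receptors Vldlr and Lrp1 fell in both. Vldlr fell, at -0.77 ± 0.11 in Ptch1KO (adjusted p = 8.53e-05) and at -0.45 ± 0.11 in SufuKO (adjusted p = 0.01), and Lrp1 at -0.70 ± 0.07 (adjusted p = 4.84e-06) and at -0.42 ± 0.07 (adjusted p = 0.00101). Npc1, which moves cholesterol out of lysosomes, was lower in Ptch1KO than in SufuKO, at -0.28 ± 0.07 (adjusted p = 0.00658). Mylip, also of this list, fell at -0.45 ± 0.09 in Ptch1KO (adjusted p = 0.00144) and at -0.42 ± 0.09 in SufuKO (adjusted p = 0.00538) against wildtype.

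**Figure D3:**
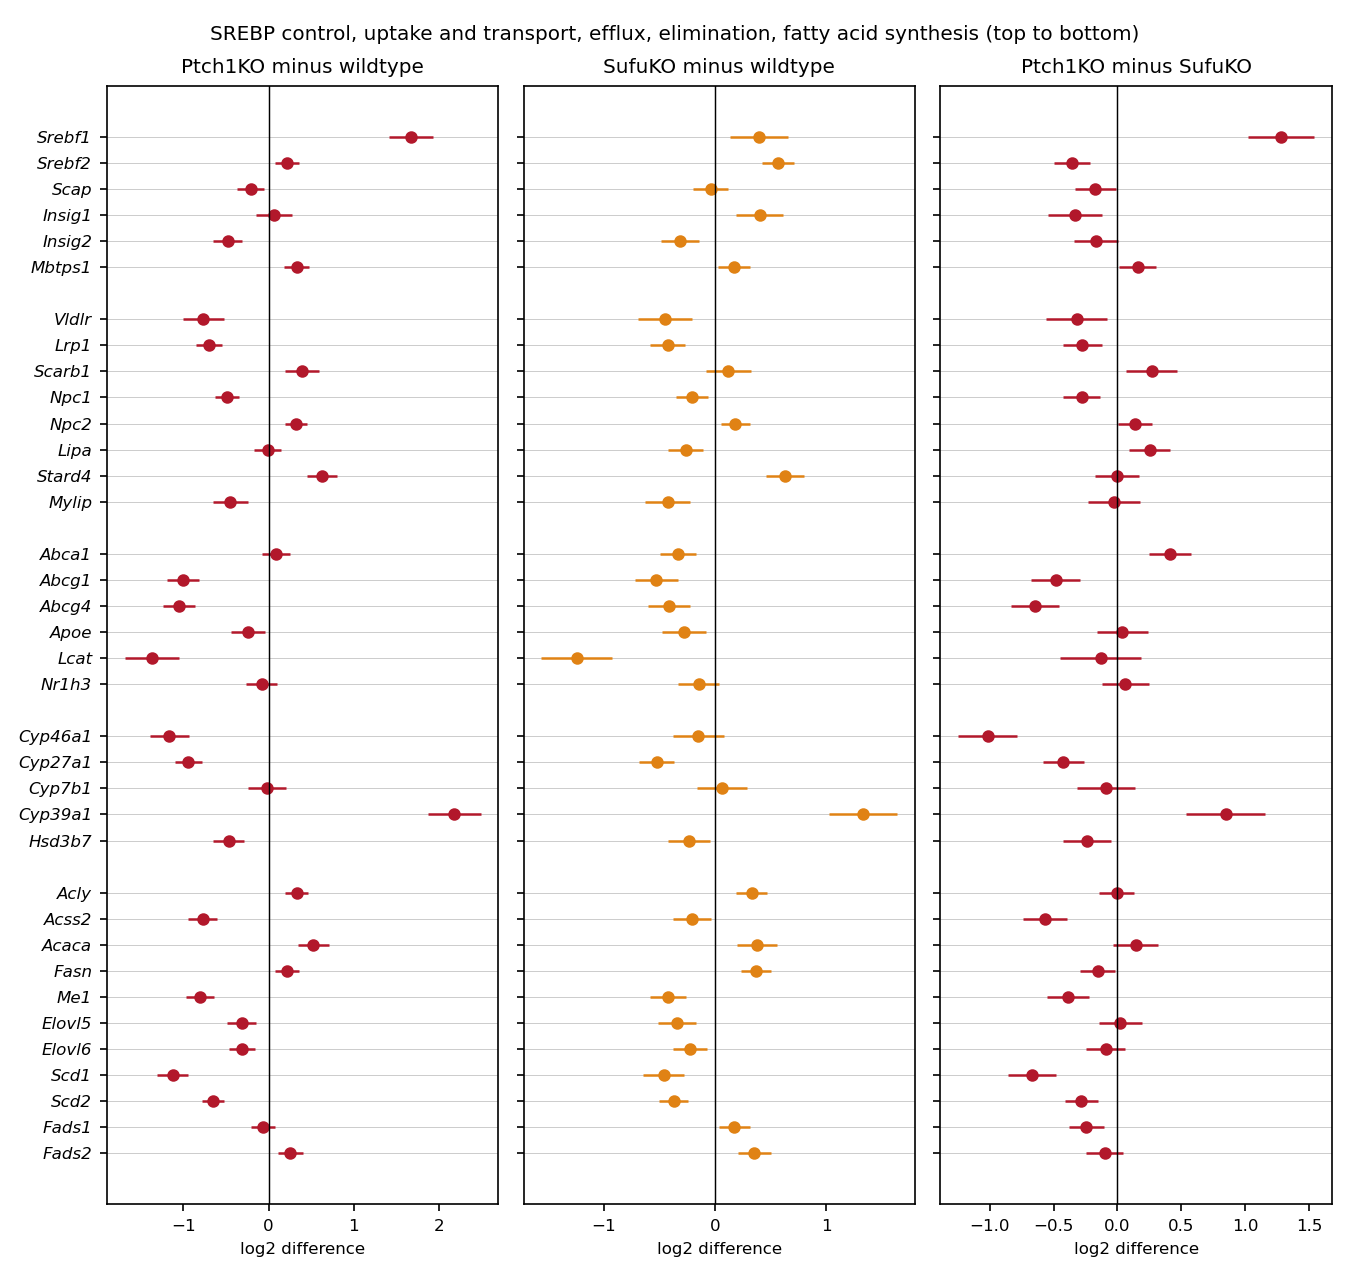
Log2 difference with its 95% interval (line) for 36 genes that control SREBP or act in cholesterol uptake and transport, efflux and esterification, elimination, and fatty acid synthesis, in blocks from top to bottom. Srebf1 and Cyp39a1 have the highest differences in Ptch1KO minus wildtype, and Lcat and Cyp46a1 the lowest.

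Of 6 tested genes of cholesterol efflux, carriage and esterification, 0 rose and 3 fell in Ptch1KO and 0 rose and 5 fell in SufuKO against wildtype. Between the mutants 1 was higher and 2 were lower in Ptch1KO. The share called in Ptch1KO, 3 of 6, was near the 46.8% of all tested genes called there, while 25.4% were called in SufuKO and 29.7% between the mutants. Soat1 and Nr1h2 were not analysed here. Lcat, which esterifies cholesterol on lipoproteins and is made by astrocytes in the brain, fell, at -1.37 ± 0.15 in Ptch1KO (log2, SE, adjusted p = 6.99e-06) and at -1.24 ± 0.15 in SufuKO (adjusted p = 8.68e-05). The sterol exporters Abcg1 and Abcg4 fell in both mutants. Abcg1 fell, at -1.01 ± 0.09 in Ptch1KO (adjusted p = 1.23e-06) and at -0.52 ± 0.09 in SufuKO (adjusted p = 0.000939), and Abcg4 at -1.05 ± 0.09 (adjusted p = 8.17e-07) and at -0.41 ± 0.09 (adjusted p = 0.00413). Abca1, the exporter to lean apolipoproteins, fell in SufuKO, at -0.33 ± 0.08 (adjusted p = 0.00691) and read 0.08 ± 0.08 in Ptch1KO against wildtype (adjusted p = 0.432). Apoe, the chief apolipoprotein of the brain, read -0.24 ± 0.09 in Ptch1KO (adjusted p = 0.0501) and fell, at -0.27 ± 0.09 in SufuKO (adjusted p = 0.0447), a call lost in 9 of 18 alternatives.

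Of 5 tested enzymes that turn sterols into oxysterols and bile acids, 1 rose and 3 fell in Ptch1KO and 1 rose and 1 fell in SufuKO against wildtype. Between the mutants 1 was higher and 2 were lower in Ptch1KO. Of all tested genes 46.8% were called in Ptch1KO, 25.4% in SufuKO and 29.7% between the mutants. Cyp46a1, the neuronal enzyme by which the brain disposes of cholesterol, read 7.79, 7.55 and 7.98 (log2) in Ptch1KO, 8.61, 8.89 and 8.87 in SufuKO and 8.92, 8.97 and 8.92 in wildtype. The tumours stood far below both other groups. Cyp46a1 fell in Ptch1KO, at -1.16 ± 0.11 against wildtype (adjusted p = 1.82e-06) and at -1.02 ± 0.11 against SufuKO (adjusted p = 3.3e-05), and read -0.15 ± 0.11 in SufuKO against wildtype (adjusted p = 0.363). Cyp39a1, which acts on the product of Cyp46a1, moved the other way. It read 8.68, 8.68 and 8.07 in Ptch1KO, 7.65, 7.61 and 7.63 in SufuKO and 6.47, 6.14 and 6.28 in wildtype. Cyp39a1 rose by 2.18 ± 0.14 in Ptch1KO (adjusted p = 1.33e-07) and by 1.33 ± 0.14 in SufuKO (adjusted p = 4.12e-05) against wildtype. Cyp27a1, which makes another oxysterol, fell, at -0.95 ± 0.07 in Ptch1KO (adjusted p = 5.17e-07) and at -0.52 ± 0.07 in SufuKO (adjusted p = 0.000297). Hsd3b7, also of this list, fell in Ptch1KO, at -0.47 ± 0.09 (adjusted p = 0.000565), and read -0.23 ± 0.09 in SufuKO (adjusted p = 0.0691) against wildtype.

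The fatty acid synthesis enzymes, which SREBPs also control, were mixed. Of 11 tested, 4 rose and 6 fell in Ptch1KO and 4 rose and 5 fell in SufuKO against wildtype. Acly, Acaca, Fasn and Fads2 rose in each of these comparisons. Between the mutants 0 rose and 5 fell in Ptch1KO relative to SufuKO. Of all tested genes 22.1% rose and 24.7% fell in Ptch1KO, 13% rose and 12.4% fell in SufuKO, and 17.5% were lower in Ptch1KO than in SufuKO. Acly, which makes acetyl-CoA from citrate, rose by 0.33 ± 0.06 in Ptch1KO (adjusted p = 0.00084) and by 0.33 ± 0.06 in SufuKO (adjusted p = 0.00222). Acaca, acetyl-CoA carboxylase, rose by 0.53 ± 0.08 (adjusted p = 0.000175) and by 0.38 ± 0.08 (adjusted p = 0.00473), and Fads2, a desaturase, by 0.25 ± 0.07 (adjusted p = 0.00729) and by 0.36 ± 0.07 (adjusted p = 0.00219). A second single-gene probe set of Acaca gave 0.57 in Ptch1KO and 0.23 in SufuKO against wildtype, with a SufuKO SD of 0.30. Between the mutants it gave 0.34, where the brightest gave 0.14. Fasn, fatty acid synthase, rose by 0.21 ± 0.06 in Ptch1KO (adjusted p = 0.0137, lost with a sex term) and by 0.37 ± 0.06 in SufuKO (adjusted p = 0.00116). Scd1, which puts a double bond into stearate, read 9.35, 9.26 and 9.41 (log2) in Ptch1KO, 9.85, 10.04 and 10.14 in SufuKO and 10.43, 10.57 and 10.40 in wildtype. It fell, at -1.13 ± 0.08 in Ptch1KO (adjusted p = 4.33e-07) and at -0.46 ± 0.08 in SufuKO (adjusted p = 0.00191). Me1, malic enzyme, fell, at -0.81 ± 0.08 (adjusted p = 2.33e-06) and at -0.42 ± 0.08 (adjusted p = 0.00155). Scd2 and the elongases Elovl5 and Elovl6 fell in both as well, the widest being -0.65 ± 0.06 for Scd2 in Ptch1KO. The Elovl6 call in SufuKO was lost with a sex term, without any 1 wildtype array and without SufuKO replicate 1 or 2. Acss2, which makes acetyl-CoA from acetate, was lower in Ptch1KO than in SufuKO, at -0.57 ± 0.08 (adjusted p = 0.000193).

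Markers of several cell types in these tissues moved with the groups. Against wildtype, 22.1% of all tested genes rose and 24.7% fell in Ptch1KO, and 13% rose and 12.4% fell in SufuKO. Between the mutants, 12.2% of all tested genes were higher and 17.5% lower in Ptch1KO. The mean log2 level of 9 mature oligodendrocyte markers lay between 8.26 and 8.54 in Ptch1KO, between 9.55 and 9.99 in SufuKO and between 10.3 and 10.6 in wildtype, and all 9 fell in each of the 3 comparisons. The widest in Ptch1KO against wildtype was Mag, at -2.60 ± 0.14 (adjusted p = 4.73e-08). That of 10 markers of Bergmann glia and astrocytes lay between 9.38 and 9.67 in Ptch1KO, between 9.59 and 9.65 in SufuKO and at 10.2 on all wildtype arrays. Of these 10, 1 rose and 7 fell in Ptch1KO, and 0 rose and 7 fell in SufuKO. Between the mutants 1 was higher in Ptch1KO, 2 were lower and 7 did not pass, and the arrays of the 2 mutants overlapped in the mean level. Gdf10 was the widest of the 10, at -2.00 ± 0.12 in Ptch1KO against wildtype (adjusted p = 8.51e-08), where the highest difference of the list was 0.48. Sox9 was the marker of this list called higher in Ptch1KO than in SufuKO, by 0.48 ± 0.09 (adjusted p = 0.00202). All 5 granule neuron progenitor markers and all 5 dividing cell markers rose in every comparison, and the progenitor list lay between 10.2 and 10.6 in Ptch1KO, between 9.48 and 9.66 in SufuKO and between 7.86 and 8.15 in wildtype. Atoh1, the factor that defines those progenitors, rose by 3.41 ± 0.20 in Ptch1KO (adjusted p = 5.66e-08). The dividing cell list lay between 9.72 and 10.0 in Ptch1KO, between 8.90 and 9.04 in SufuKO and between 6.85 and 7.22 in wildtype. Of 7 mature granule neuron markers 6 fell in each comparison, with a mean level between 9.26 and 9.90 in Ptch1KO, between 10.6 and 10.7 in SufuKO and between 11.3 and 11.5 in wildtype. All 4 Purkinje cell markers fell in each comparison too, and lay between 9.29 and 9.44 in Ptch1KO, between 10.5 and 10.6 in SufuKO and between 11.1 and 11.2 in wildtype.

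Of 7 endothelial and pericyte markers 7 fell in Ptch1KO and 4 in SufuKO, with a mean level between 7.88 and 7.89 in Ptch1KO, between 7.92 and 8.04 in SufuKO and between 8.24 and 8.36 in wildtype. Of 6 microglia markers 2 rose in Ptch1KO and 0 in SufuKO, with a mean level between 6.87 and 7.03 in Ptch1KO, between 6.75 and 6.87 in SufuKO and between 6.72 and 6.75 in wildtype. Of all tested genes 22.1% rose and 24.7% fell in Ptch1KO, and 13% rose and 12.4% fell in SufuKO. No marker reads 0 on this scale, and the dimmest of the oligodendrocyte list, Aspa, had a mean of 7.01 over the 9 arrays. None of the marker lists had SufuKO highest, as the mean of the 8 enzymes had. The part of cell makeup in the levels of the enzymes was not tested.

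**Figure D4:**
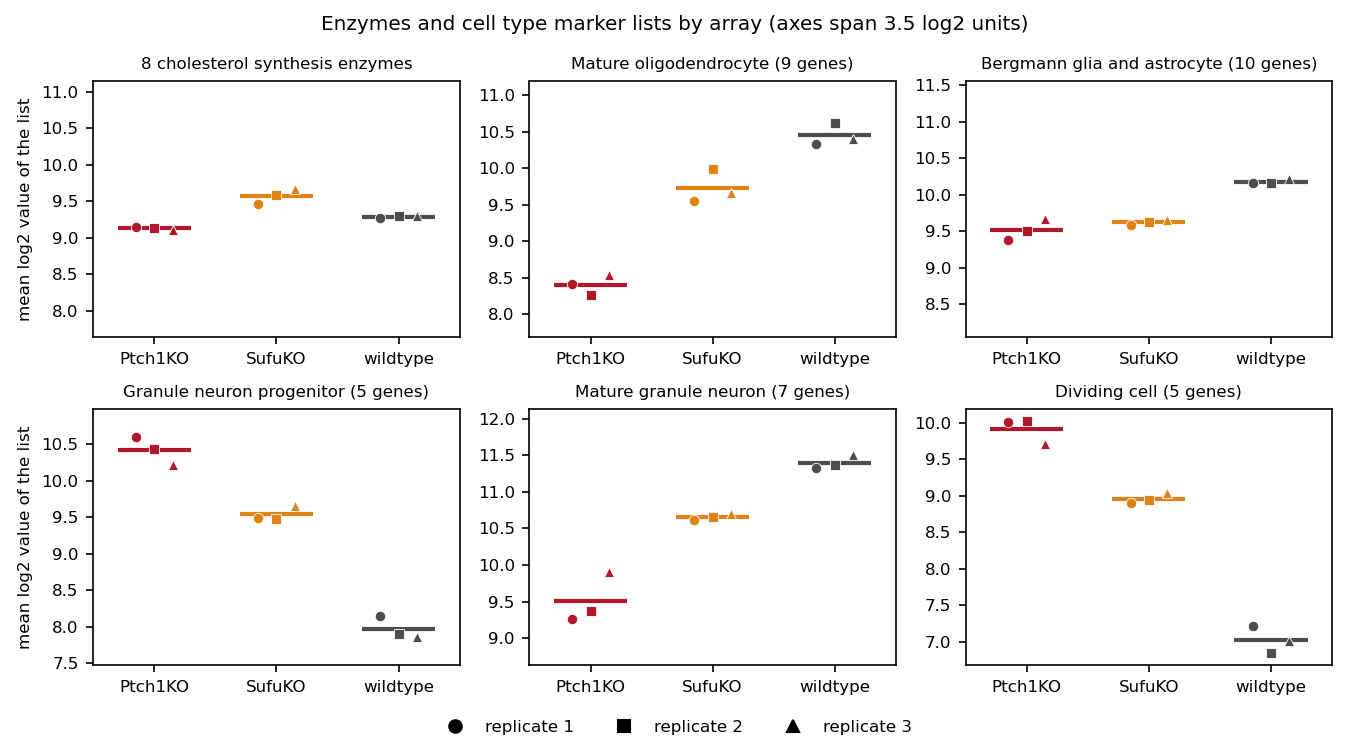
Mean log2 value on each array (symbols are replicates) of the 8 enzymes and of 5 cell type marker lists, with the group mean (bar), for Ptch1KO, SufuKO and wildtype; every y axis spans 3.5 log2 units. By group means each marker list is ordered with SufuKO between Ptch1KO and wildtype, whereas the enzymes are highest in SufuKO. The Ptch1KO and SufuKO arrays of the Bergmann glia and astrocyte list overlap.

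The genes whose values ran closest to the enzymes were sought by the root mean square difference over the 9 arrays between a gene's centred log2 values and the mean centred profile of the 8. The 8 nearest of 16315 other tested genes were Nav2, Gdpd5, St6galnac3, Zfp369, Tspyl2, Wdr47, Med27 and Hectd3, with differences between 0.0564 and 0.0670 log2 units, where the median gene had 0.240. None of these belongs to the lists above. Nav2 averaged 8.98 ± 0.05 in Ptch1KO, 9.46 ± 0.03 in SufuKO and 9.12 ± 0.06 in wildtype (log2, SD, n = 3). All 8 had SufuKO highest and Ptch1KO lowest, which follows from how they were picked. Of the lists above the nearest were Fads1 at rank 88, Mvk at 162, Insig1 at 174 and Nsdhl at 188. Among the 8 enzymes themselves, which are part of that profile, Cyp51 lay nearest to it at 0.0540 and Fdft1 farthest at 0.257.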

How the data were processed

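RNA from 9 samples, 3 per group, was measured on Affymetrix Mouse Gene 1.0 ST arrays. The authors deposited log2 expression values for 35556 probe sets; the scale was recognised from the values, and how background was corrected and arrays were normalized is not given in the sources used here. Detection calls are not part of the table, and the number of arrays limits the precision.

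Probe sets were named with the supplied annotation: 21789 had 1 gene symbol, 1621 several and 12146 none listed. Of the single-gene ones, 21698 matched a RefSeq gene table by gene identifier. The brightest probe set stood for a gene. Of 19938 genes, 16323 exceeded the 25th percentile of an array on 3 or more of the 9 and entered a limma 3.58.1 fit (R 4.3.3), with 1 mean per group over all 9 arrays, empirical Bayes variances and Benjamini-Hochberg adjustment over all tested genes at 0.05. SE is the moderated standard error, and all adjusted p-values are 2-sided.

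The 8 enzymes and all gene lists were chosen with earlier results of these data known. Named genes are the 8 enzymes, Srebf1, Srebf2 and Insig1, the 2 called genes with the widest difference in each pathway list and comparison, further members of such a list where a count is 5 or less, and the 8 nearest by pattern. The rule also took the 2 widest genes of each marker list in each comparison. Of these only Mag, Gdf10, Sox9 and Atoh1 are named, for brevity. Aspa is named as the dimmest of its list, after its values were seen. The fit was tested on simulated data. Alternatives were a replicate block, an intensity-trended prior, quantile normalization, median centring, other filters, the mean of probe sets, a sex term from Xist, only the groups compared, and leaving out each array.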

Additional observations from a re-analysis of the deposited data

How the results depend on the processing

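No called value changed sign under any of the 18 alternatives. For the differences of single genes, leaving out 1 array ended a call in 74 cases and made one in 8, against 1403 marked the same. The other settings ended 29 and made 16, and 4 more values were marked as shifted, against 1433 marked the same. The tallies include differences that were not called with all arrays, and also the 8 enzymes, whose calls were not followed. Thus 1403 and 1433 are not counts of calls that held, and calls were lost more often than the tallies make it seem. The number of other cholesterol synthesis enzymes called in SufuKO against wildtype was 8 of 11 with all arrays, 5 with a sex term, and between 5 and 8 when 1 array was left out, with 5 both without wildtype replicate 1 and without SufuKO replicate 2. The median log2 difference of the 8 enzymes for SufuKO minus wildtype was 0.24 with all arrays, 0.37 with a sex term and between 0.20 and 0.37 with 1 array left out. For Ptch1KO minus wildtype it was -0.21 with all arrays and -0.11 with a sex term, and for Ptch1KO minus SufuKO it was -0.43, and between -0.49 (without SufuKO replicate 1) and -0.36 (without SufuKO replicate 3) with 1 array left out. The cause of these shifts was not tested. Leaving out 1 array gave between 6764 and 7930 called genes in Ptch1KO against wildtype, between 3059 and 4574 in SufuKO against wildtype and between 3695 and 5129 between the mutants. Deviations of same-numbered samples from their group means did not correlate in every pair, so the numbers were not taken to pair the samples. With the replicate number as a block, 7 other synthesis enzymes were called in Ptch1KO against wildtype, 7 in SufuKO against wildtype and 8 between the mutants, with 7520, 3989 and 4626 genes called in all, and the medians of the 8 enzymes stayed at -0.21, 0.24 and -0.43. The block ended the SufuKO against wildtype calls of Mvk, Npc1 and Npc2 and the Ptch1KO against SufuKO calls of Vldlr and Scarb1. Sex is tied to genotype here, with all wildtype arrays high in Xist, so the sex term rests on the arrays of the mutants.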
